A study of Apis mellifera with 2 samples.

Results

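The mRNAs described here are model records of the honey bee, Apis mellifera, that were moderately counted and more than 2-fold higher in queen larvae fed miR-184 than in queen larvae fed water. They were chosen by the measured values themselves. A record entered when its RefSeq identifier began with XM_ (a predicted mRNA), when the mean of its raw counts in both libraries was at least 30 and under 1000 tags, and when its share of the miR-184 library was over 2 times its share of the control library. Of the 5924 records in the table, 5676 were model mRNAs, 2296 of these lay in the range of mean counts, and 87 passed the ratio. Since the ratio selected these members, their ratios are given as a description and were not tested. A list of hormone and troponin genes was left out by name, which removed 1 mRNA from the range and none from the members. Names were available only for the 2801 of 5924 records matched to an annotated gene. Unmatched records, 42 members among them, could not be screened in this way.

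The treated group was larvae of Apis mellifera ligustica ZND No.1 raised in queen cells, each given 5 µl of a miR-184 solution in DEPC-treated water at 100 ng per µl between 26 and 32 hours after hatching, and again on the following day. The control group was larvae of the same breed and rearing, given 5 µl of DEPC-treated water at the same ages. An experimental group held 20 to 25 queen cells, and how many larvae entered each library is not given in the sources used here. Each group gave 1 library, so that the feeding and any other difference between the larvae or the preparations cannot be told apart. In RNA extracted from larvae, more cells of a type and more mRNA per cell cannot be told apart either.

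A miRNA is a short RNA that guides a silencing complex to matching sites in mRNAs, mostly in the 3′ part, and lowers their level or translation. The mRNAs described here lie in the direction opposite to that action, and whether any of them holds a site for miR-184 was not examined. miR-184 is conserved across animals, and in Drosophila it acts in the female germ line and the early embryo. Small RNAs that are more plentiful in worker jelly than in royal jelly were fed to queen larvae to look for effects on the form of the adult bee, and the mRNAs were then profiled for miR-184, to see which of them differ after it is fed.

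The mRNAs were measured by tag profiling. cDNA held by its poly(A) end was cut with the restriction enzyme Nla III, and a short tag next to the cut was read, so that a count stands for the number of tags at the 3′ end of an mRNA. The miR-184 library held 1353258 tags and the control library 1338190. The storage protein mRNA HEX70b, a marker of the larval fat body, was counted 58273 times in the miR-184 library and 60187 times in the control library. Of the 9 royal jelly protein mRNAs listed as markers of nurse bee head gland RNA, 3 were matched, namely Mrjp1, Mrjp2 and Mrjp8. These added up to 12 tags in the miR-184 library and 13 in the control library. In the miR-184 and control libraries Mrjp1 had 2 against 5 tags, Mrjp2 had 0 against 2, and Mrjp8 had 10 against 6. Their counts were low and did not all go the same way, so that the near-equal sums do not describe each mRNA. Of the muscle list, 1 of 4 mRNAs could be matched, Argk, the arginine kinase that buffers ATP in muscle and other tissues. Argk was counted 10186 times in the miR-184 library and 7290 times in the control library, a 1.38-fold difference with a 95% counting interval from 1.34 to 1.42. It was thus higher in the miR-184 library, as the members are, and its part in their difference was not tested. HEX70b was likewise the 1 match of 4 listed for the fat body, and none of the 3 listed for epidermis and cuticle was matched.

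The 87 members were counted 42 to 1266 times in the miR-184 library, with a median of 77 tags, and 11 to 503 times in the control library, with a median of 31. Together they took 14149 tags or 1.05% of the miR-184 library, and 5826 tags or 0.435% of the control library. None of them was listed at 0 in either library. The median log2 ratio of the members was 1.19, beside 0.05 over all 2296 model mRNAs in the range. Of the 2296, 3.79% were over 2-fold higher in the miR-184 library, and these are the members. Another 187, or 8.14%, were over 2-fold lower.

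**Figure D1:**
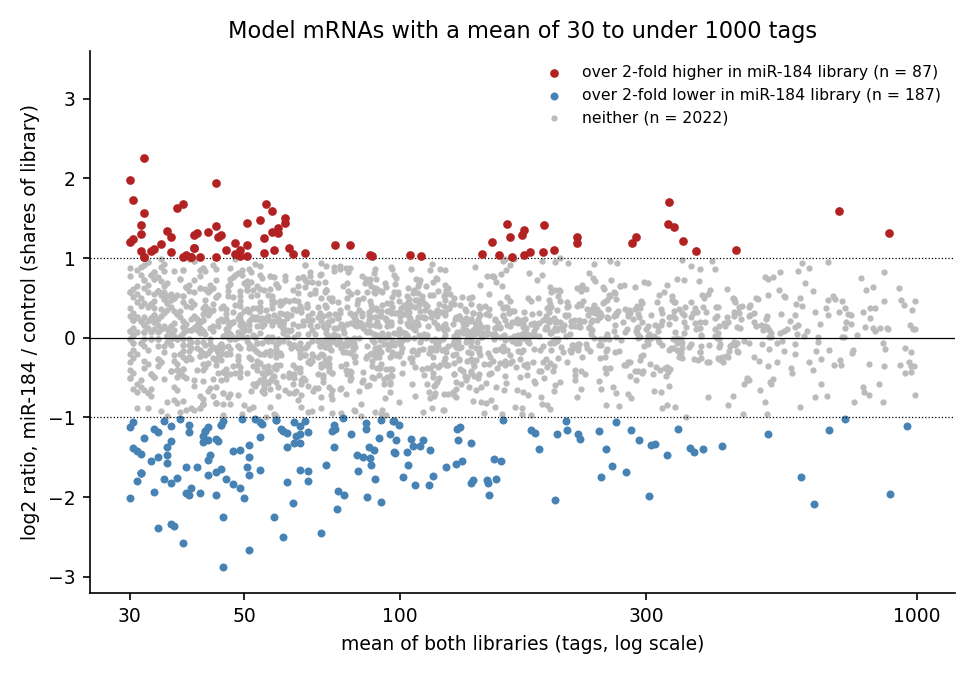
Log2 ratio of the shares of the miR-184 and control libraries (vertical axis) against the mean count of both libraries in tags (horizontal axis, log scale) for the 2296 model mRNAs in the range. Each point is 1 mRNA. The 87 members in red lie above a log2 ratio of 1 by their selection, and the 187 mRNAs in blue lie below -1.

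The members stood mostly close to the threshold that chose them. The ratio of 37 members was between 2 and 2.2, that of 24 between 2.2 and 2.5, that of 16 between 2.5 and 3, and that of 10 was over 3. Lower mRNAs reached further from 1. Over the 2296 mRNAs, 10 were over 3-fold higher and 70 over 3-fold lower in the miR-184 library, and 1 was over 4-fold higher and 17 over 4-fold lower. With a ratio over 1.2 the order was the other way round, with 743 higher and 662 lower. At a ratio over 1.5 the numbers were 325 higher and 363 lower.

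The largest ratio was that of XM_393329.2, with 53 tags in the miR-184 library and 11 in the control library. The log2 ratio was 2.25, with an exact Clopper-Pearson interval (95%) from 1.30 to 3.34. Such an interval covers counting error only, since tags were amplified by PCR without molecular identifiers and there is no replicate library. XM_392328.3 followed with 48 tags in the miR-184 library and 12 in the control library, a log2 ratio of 1.98 (interval 1.05 to 3.03). XM_623975.2 had 70 against 18 tags in the miR-184 and control libraries, a log2 ratio of 1.94 (interval 1.18 to 2.78). These 3 mRNAs were rare in the control library, and their intervals were wide. They have no gene in the current annotation table, so that no function is given.

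LOC409802 and LOC411662 had ratios over 3 from much higher counts. LOC409802 was counted 510 times in the miR-184 library and 155 times in the control library, a 3.25-fold difference with an interval from 2.71 to 3.92. LOC411662 was counted 1065 times in the miR-184 library and 349 times in the control library, a 3.02-fold difference with an interval from 2.67 to 3.42. Their lower limits, 2.71 and 2.67, were the highest of all 87 members and were also above that of XM_393329.2, which was 2.46.

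The other 5 of the 10 largest ratios came from mRNAs with fewer than 100 tags in both libraries. LOC408761 had 47 tags in the miR-184 library and 14 in the control library (3.32-fold). LOC409653 had 84 against 26 tags in the miR-184 and control libraries (3.19-fold), and XM_001122461.1 had 58 against 18 (3.19-fold). In this group LOC409653 alone had a lower limit over 2, at 2.04. LOC726190 had 56 tags in the miR-184 library against 18 in the control library (3.08-fold), and LOC410485 had 85 against 28 (3.00-fold). The intervals of all 5 overlapped, for example that of LOC726190, from 1.78 to 5.56, and that of LOC410485, from 1.94 to 4.78, so that the order of these 5 mRNAs is not resolved by their counts.

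The most counted member was XM_001119952.1, with 1266 tags in the miR-184 library and 503 in the control library, a 2.49-fold difference with an interval from 2.24 to 2.77. The 10 members with the highest mean counts, a set chosen after the values were seen, held 44.1% of the members' tags in the miR-184 library. Besides XM_001119952.1, LOC411662 and LOC409802 they were the 7 mRNAs that follow. XM_392785.3 had 612 tags in the miR-184 library and 283 in the control library (2.14-fold), and XM_394825.3 had 510 against 237 (2.13-fold). These had the 2 smallest ratios of the 10.

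LOC551323 had 496 tags in the miR-184 library and 211 in the control library (2.32-fold). XM_392397.3 had 492 against 185 tags in the miR-184 and control libraries (2.63-fold), and LOC552539 had 484 against 178 (2.69-fold). For XM_392397.3 and LOC552539 the interval lay wholly above 2, while that of LOC551323 began at 1.97. LOC724493 had 405 tags in the miR-184 library and 167 in the control library (2.40-fold), and LOC552237 had 393 against 170 (2.29-fold). The lower limits of LOC724493 and LOC552237 were 2.00 and 1.90, the first just under the ratio that chose the members.

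**Figure D2:**
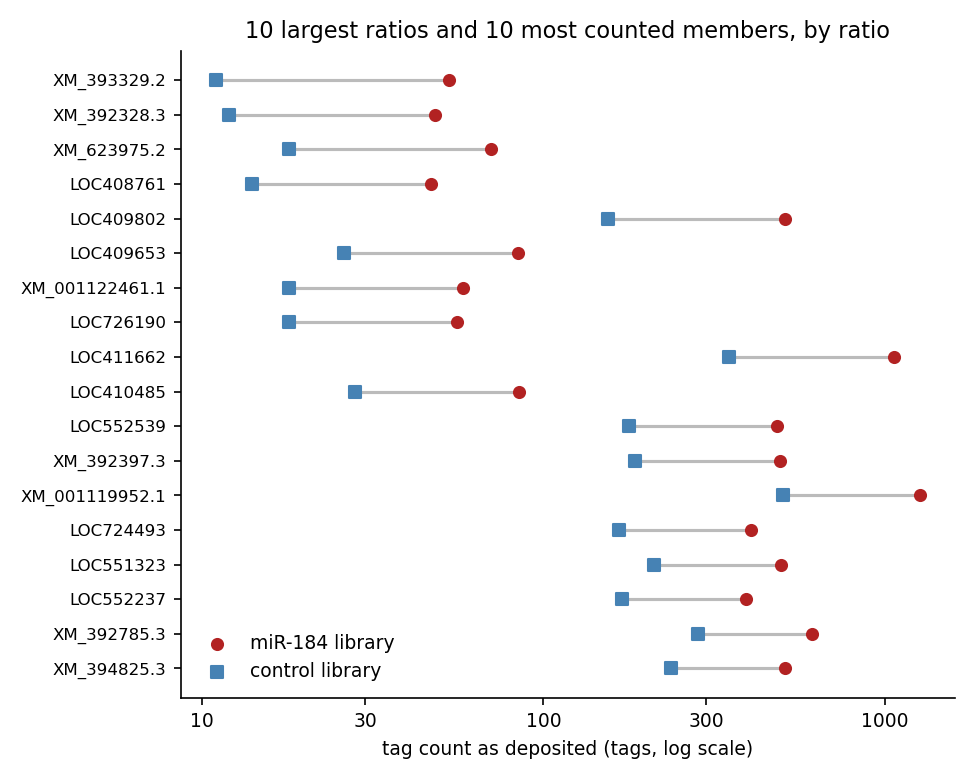
Tag counts as deposited (horizontal axis, log scale) in the miR-184 library (red circles) and the control library (blue squares) for the 10 members with the largest ratios and the 10 with the highest mean counts, 18 mRNAs in all, from the largest ratio at the top. The mRNAs at the top are mostly rare ones, with XM_393329.2 at 53 and 11 tags, and LOC409802 and LOC411662 stand out among them by their higher counts.

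Members were most numerous at the lowest level of counting. A mean of 30 to under 50 tags held 39 of the 87 members, with 42 to 70 tags in the miR-184 library and 11 to 32 in the control library. A mean of 50 to under 100 tags held 21, a mean of 100 to under 300 held 19, and a mean of 300 to under 1000 held 8. The last 8 had 484 to 1266 tags in the miR-184 library and 155 to 503 in the control library. As a share of all model mRNAs at the same level, members made up 6.96% of 560 in the lowest level, 3.10% of 677 and 2.61% of 729 in the next levels, and 2.42% of 330 in the highest. The share of mRNAs over 2-fold lower was 11.2%, 9.45%, 6.04% and 4.85% at the same levels, so that both shares were smaller at higher counts. The spread of the log2 ratio over all mRNAs was also smaller there, with an SD over mRNAs of 0.77 in the lowest level and 0.56 in the highest. The part of counting error and of variation between larvae in these shares was not tested.

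**Figure D3:**
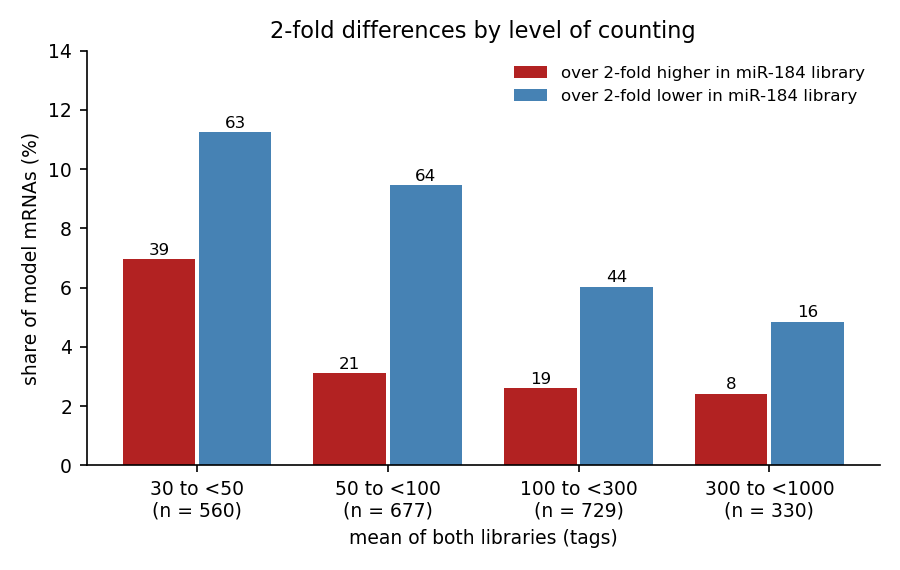
Share of model mRNAs (vertical axis, percent) that were over 2-fold higher (red) or over 2-fold lower (blue) in the miR-184 library, at 4 levels of the mean count in tags, with the number of mRNAs above each bar. The red bars show 6.96% at the lowest level and 2.42% at the highest, and the blue bar is the taller one at each level.

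The counting interval of every member lay above a ratio of 1, which follows from the selection and adds nothing to it. The lower limit was over 1.2 for 85 members, over 1.5 for 51 and over 2 for 12. These limits come from the same counts that chose the members and were not adjusted for that choice. They describe how precisely each ratio was counted and are no further support for it. The smallest lower limit, 1.18, was that of LOC409756 and of XM_001122489.1, both with 43 tags in the miR-184 library and 21 in the control library. The 12 members with a lower limit over 2, listed after their values were seen, were XM_393329.2, XM_392328.3, XM_623975.2, LOC409802, LOC409653, LOC411662, LOC552539, XM_001121138.1, LOC724772, XM_392397.3, LOC552050 and XM_001119952.1. Of these, XM_001121138.1 had 236 tags in the miR-184 library and 87 in the control library. LOC724772 had 277 against 103 tags in the miR-184 and control libraries, and LOC552050 had 250 against 97. These 3 were between 2.5-fold and 3-fold higher in the miR-184 library, with lower limits of 2.09, 2.11 and 2.01. The interval of XM_393329.2, the first by ratio, overlapped that of each of the other 86 members.

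**Figure D4:**
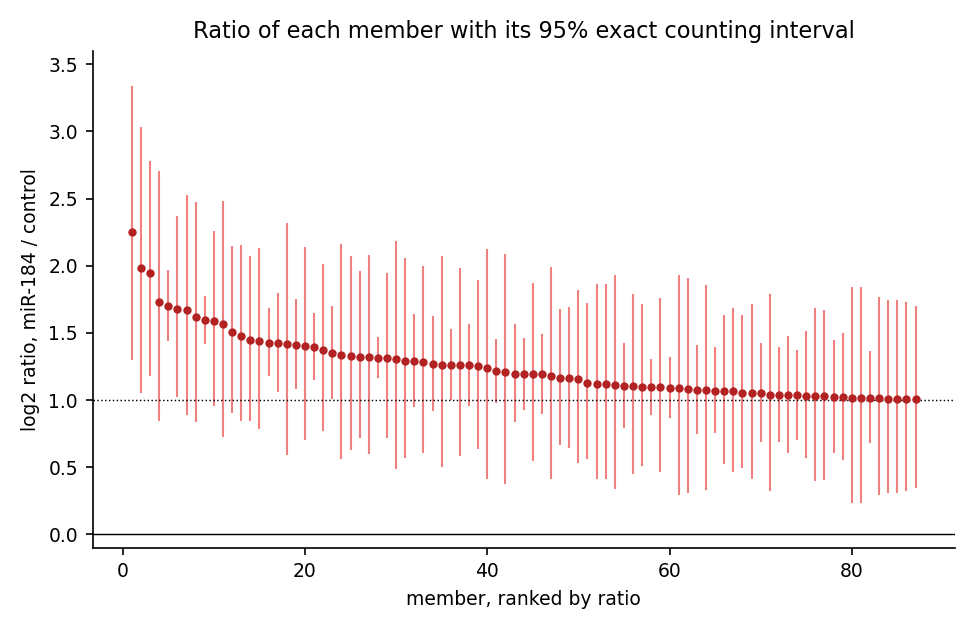
Log2 ratio of the 87 members, miR-184 over control (vertical axis), ranked by ratio (horizontal axis). Points are ratios and lines are 95% exact Clopper-Pearson intervals for counting error, with the selecting ratio as a dotted line at 1. The half-width of the intervals ranged from 0.15 to 1.02 on the log2 scale with a median of 0.64, and 12 intervals lie wholly above the dotted line.

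Several mRNAs lay close to the thresholds on both sides. The lowest ratios were those of XM_001123041.1, with 59 tags in the miR-184 library and 29 in the control library (2.01-fold), LOC551588 with 55 against 27 (2.01-fold), and XM_391891.3 and LOC412209, both with 53 against 26 (2.02-fold). Just outside, LOC724365 had 273 tags in the miR-184 library and 135 in the control library, a ratio of 1.9997. XM_395314.3 with 213 against 106 tags in the miR-184 and control libraries (1.99-fold) and XM_392020.3 with 222 against 111 (1.98-fold) followed. At the same ratio as XM_392020.3 were XM_625058.2 with 64 tags in the miR-184 library and 32 in the control library, XM_001121618.1 with 52 against 26, and XM_001121789.1 with 46 against 23. At the lower limit of the mean, XM_392328.3 and XM_001120251.1 lay exactly at 30 and were kept. XM_001120251.1 had 42 tags in the miR-184 library and 18 in the control library. LOC408761 and XM_001121379.1 were next, both at 30.5. XM_001120676.1, with 40 tags in the miR-184 library and 19 in the control library, fell just short with a mean of 29.5, and XM_001120142.1 and XM_001120496.1, both with 39 against 16, had a mean of 27.5.

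Some features were not used to choose the members. By RefSeq record without its version, 45 of the 87 members (51.7%) matched a gene of the Amel_HAv3.1 annotation, against 1268 of the 2296 model mRNAs in the range (55.2%). All 45 carried a LOC number and none had a symbol of its own. Other matched model mRNAs in the range carried LOC numbers as well, so that this does not set the members apart. The table gives no product names, and the members could not be sorted by function here. Records in their first version made up 34 of the 87 members (39.1%), against 687 of the 2296 (29.9%) and 52 of the 187 lower mRNAs (27.8%). Records of the XM_001 series made up 27 members (31.0%), against 583 (25.4%) of the range and 48 (25.7%) of the lower mRNAs. All 27 of these members were also in their first version, so that the higher shares of both features are largely the same records. These shares were not compared at matched levels of counting. The median of the mean count was 54.5 tags for the members and 91.0 for the range. Among the records matched to a gene, no gene was counted under more than 1 record. Records without a match were assigned to no gene, so that other transcripts of the 45 members' genes could be among them.

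LOC552539 and LOC724343 were next to each other in the order of protein-coding genes, and both were members. LOC552539 had 484 tags in the miR-184 library and 178 in the control library, and LOC724343 had 211 against 91, a 2.29-fold difference with an interval from 1.78 to 2.97. The intervals of their ratios overlapped. The genes on either side of the pair were counted as well. LOC552519, next to LOC552539, had 70 tags in the miR-184 library and 87 in the control library (a log2 ratio of -0.33), and LOC552571, next to LOC724343, had 121 against 100 (a log2 ratio of 0.26). The difference over 2-fold was thus seen in both genes of the pair and in neither outer neighbour. Members had 19 direct neighbours with a mean of at least 30 tags, and 2 of these were over 2-fold higher. These 2 were the same pair, seen from both sides. For all matched mRNAs of the range it was 20 of 444 neighbours, and for the lower mRNAs 2 of 39. These shares were not tested against each other, and a single pair does not show that members lie together more often. Whether tags of one gene of the pair were counted for the other was not tested. LOC412830 (48 tags in the miR-184 library and 21 in the control library) and LOC552237 were on the same chromosome with 4 protein-coding genes between them. How often other mRNAs of the range lie at the distance of LOC412830 and LOC552237 was not counted, so that this spacing is a description only.

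The genes beside members were read as well. The 45 placed members had 17 direct neighbours that were not members themselves and had a mean of at least 30 tags. Of these, 14 (82.4%) had a log2 ratio above 0, and their median was 0.26. Neighbours of all 1268 placed mRNAs in the range, again without members among the neighbours, were above 0 in 250 of 426 cases (58.7%), with a median of 0.09. Neighbours of the 103 placed mRNAs that were over 2-fold lower, taken in the same way, were above 0 in 25 of 38 cases (65.8%), with a median of 0.16. The largest log2 ratio among the 17 neighbours was 0.57. A neighbouring model mRNA in the range and over 2-fold higher would itself have been a member. Ratios over 2 were thus left out of the 17 beforehand, except for records that the rule does not admit. LOC724161, beside the member LOC413385 (74 tags in the miR-184 library and 35 in the control library), went the other way, with 56 tags in the miR-184 library and 150 in the control library, and its log2 ratio was -1.44. The 17 neighbours are few and no test was made of this difference.

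Some members had the same counts as another. Each of 3 pairs shared both of its counts, namely LOC409756 and XM_001122489.1 (43 tags in the miR-184 library and 21 in the control library), LOC412209 and XM_391891.3 (53 tags in the miR-184 library and 26 in the control library) and XM_395515.2 and XM_001122188.1 (55 tags in the miR-184 library and 25 in the control library). These 6 were 6.90% of the members. Over the range, 311 of 2296 mRNAs (13.5%) shared both counts with another. Near-identical copies of these mRNAs were not examined.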

How the data were processed

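The authors made 2 tag profiling libraries, mapped the reads on mRNAs and the genome of the bee, and added up those that hit a single gene. The aligner, build and filters are not given in the sources used here. The deposited values were used as raw counts. The labels name them TPM, yet both columns sum to more than 1000000 and to unequal totals.

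Counts were divided by library totals, with a 0 taken as 1 tag. Intervals are exact Clopper-Pearson intervals (95%) of the miR-184 library's share of an mRNA's tags, converted to a ratio. Their code was run on counts simulated with counting error only, the setting they are built for. That run does not cover variation between libraries or PCR. With 1 library per group, no test of the conditions was made. Described in full were the 10 largest ratios, members beside another member, and the 3 mRNAs nearest each threshold. The mRNAs above the upper limit of the mean are all given as observations. Members, lists and rules were chosen with earlier results of these data known. The planned sorting by function needed product names, which were not used here. Gene names and order came from RefSeq (Amel_HAv3.1), which paired 2801 of the 5924 records. No coordinates are given. Scalings by edgeR 4.0.16 (TMM) and DESeq2 1.42.0 (size factors) were alternatives in R 4.3.3. Ratios and intervals used scipy 1.17.1 and pandas 2.3.3 in Python 3.11.15, and figures matplotlib 3.10.9.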

Additional observations from a re-analysis of the deposited data

How the results depend on the processing

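No paired analysis was possible because each group has 1 library, and leaving out a library was not possible either. The number of members, 87, was 87 with TMM scaling, 89 with DESeq2 size factors (which were equal for both libraries), 87 without the 10 most abundant mRNAs and 80 with a pseudocount of 1 tag. By construction it moved with the thresholds. It was 48 with a mean of at least 50 tags and 479 with no lower limit of the mean, 325 at a ratio above 1.5 and 10 at one above 3. The number was 12 when the lower counting limit had to exceed 2. The median log2 ratio lay between 1.18 and 1.21 under 4 alternatives, and 66 of 66 recomputed ratios of 22 single members lay inside their counting intervals under 3 scalings. These scalings shift all ratios by at most 0.02 (log2) and are a weak check. Depth limits the 39 members under a mean of 50 tags most.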

Other observations

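More mRNAs were over 2-fold higher in the miR-184 library than the range of mean counts admits. Of 195 model mRNAs that averaged 1000 tags or more, 6 exceeded 2-fold upwards and 13 downwards. The 6 were LOC551282 (1971 tags in the miR-184 library and 958 in the control library), XM_001122695.1 (2415 tags in the miR-184 library and 708 in the control library), XM_393423.3 (2849 against 1076 in control), LOC550785 (3696 against 1764 in control), XM_396741.3 (5239 against 2159 in control) and LOC409832 (6493 against 2956 in control). XM_001122695.1 had the largest ratio of these, 3.37. Under a mean of 30 tags, 392 of 3184 model mRNAs were over 2-fold higher, and 196 of them were listed at 0 in the control library, where a ratio rests on a 0 taken as 1 tag.

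Of 22 curated mRNA records in the same range of mean counts, 2 were over 2-fold higher in the miR-184 library and 2 over 2-fold lower. The higher ones are named here after their values were seen, and the 2 lower ones are not named. One was PPO, the prophenoloxidase that makes melanin in cuticle repair and immune defence, with 102 tags in the miR-184 library and 28 in the control library. The other was PRF, listed in the annotation with the synonym chic, the Drosophila name of the actin-binding protein profilin. PRF had 1001 tags in the miR-184 library and 397 in the control library, a 2.49-fold difference with a counting interval from 2.22 to 2.81.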
